A study of Bos grunniens with 6 samples.

Results

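The genes described here are the nuclear genes for mitochondrial respiration, the mitochondrial ribosome and protein import, with those for upkeep of mitochondrial DNA, fusion and fission, calcium uptake and the pyruvate, isocitrate and oxoglutarate dehydrogenases, in an m6A methylome of cattle-yak testis. They were chosen by the start of the gene symbol in the peak list (NDUF, COX with a digit, ATP5, UQCR, SDHA to SDHD, TIMM, TOMM, MRPL, MRPS, TFAM, TFB1M, TFB2M, POLG, MTERF, MFN, OPA1, DNM1L, MFF, PINK1, VDAC, PDHA, PDHB, PDHX, IDH, OGDH and MICU), and no measured value was used. The rule found 122 of 16186 listed peaks, on 100 of 8986 gene identifiers and under 86 of 7802 symbols. All 100 identifiers had a value in the expression table of 20953 genes. They lay on 27 chromosomes, with *PDHA1* the only one on the X chromosome and none on the Y chromosome.

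Testis tissue was taken at castration from 3 healthy cattle-yaks, the hybrids of cattle and yak, which the labels list under Bos grunniens. All 3 animals (TES5, TES6 and TES7) were 5 years old, with no treatment listed, and each gave 1 library of fragments enriched with anti-m6A beads (IP) and 1 library of the same poly(A) RNA before the pull-down (input). There was 1 condition, so no groups were compared. The male cattle-yak is sterile, with an arrest of spermatogenesis, so its testis holds few late germ cells. The peak list is 1 list for the 3 animals, without a height, fold enrichment or value per animal, whereas expression was given as FPKM (a fragment count scaled for library size and transcript length) for each input library.

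Mitochondria make ATP by passing electrons through respiratory complexes I to IV in the inner membrane and using the proton gradient to drive the ATP synthase. A few core subunits are encoded by mitochondrial DNA and made on the mitochondrial ribosome, whose proteins come from the nucleus. All other subunits are made in the cytosol and imported through the TOM complex of the outer membrane and the TIM complexes of the inner membrane. N6-methyladenosine (m6A) is an internal mark of mRNA, best known near stop codons and in 3' UTRs, where it is bound by reader proteins that affect splicing, translation and decay. In the testis, Sertoli cells and spermatogonia lean on glycolysis, while spermatocytes and spermatids rely more on respiration and carry germ-cell forms of some mitochondrial enzymes.

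The symbol of a listed peak did not always fit the identifier beside it. Of the 100 identifiers, 53 carried a mitochondrial gene ontology (GO) term in the list, 42 carried only other terms and 5 carried none. The term for RNA-directed DNA polymerase activity stood on 13 identifiers and the pair nucleus and cytoplasm alone on 14. Several terms named the function of a gene that lies near the symbol in RefSeq (assembly Bosgru_T2T1.0). An *ATP5F1B* identifier (ENSBGRG00000003514) carried the nascent polypeptide-associated complex term, which belongs to the nearby *NACA*. A *MRPS11* identifier (ENSBGRG00000012708) carried Cul4A-RING ubiquitin ligase terms, and *DET1* lies beside that symbol. *PINK1* carried kinesin terms, with *KIF17* near by, and *NDUFB9* carried actin-binding terms beside *MTSS1*. Mitochondrial terms stood on 6 of 6 inner membrane import identifiers and 8 of 9 for mitochondrial DNA upkeep, but on 1 of 6 ATP synthase identifiers and 0 of 5 for fusion, fission and quality control. Results are therefore given by identifier, apart from shares of symbols, and the main ones also for the 53 identifiers with a mitochondrial term. That restriction was chosen after the data were seen. Terms are named below for some identifiers only, so a symbol given without terms was not checked further.

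The respiratory complexes had few symbols with a listed m6A peak, and the genes for mitochondrial DNA upkeep had many. Among nuclear protein-coding RefSeq symbols that the rule matches, 86 of 237 (36.3%, 95% Wilson interval 30.4% to 42.6%) had a peak, beside 45.2% of all 16444 named nuclear protein-coding symbols. Of the 105 symbols for the respiratory complexes and ATP synthase, 17 had a peak (16.2%, 10.4% to 24.4%), and this interval lay below the share over all symbols. The mitochondrial ribosome stood at 36 of 76 symbols (47.4%, 36.5% to 58.4%) and import at 10 of 23 (43.5%, 25.6% to 63.2%), and both intervals held the share over all symbols. The remaining roles reached 23 of 33 symbols (69.7%, 52.7% to 82.6%). Counting only peaks on identifiers with a mitochondrial GO term, the share over the rule fell to 21.5% (16.8% to 27.2%). It was then 7 of 105 symbols for respiration (6.67%), 23 of 76 for the ribosome (30.3%), 8 of 23 for import (34.8%) and 13 of 33 for the remaining roles (39.4%, 24.7% to 56.3%), whose interval then held 45.2%. The share over all symbols has no such restriction, so the restricted shares are not on its scale. Intervals on shares cover counting error only, and genes and peaks are not replicates, so these differences were not tested. The expression table gives identifiers without symbols, so the levels of symbols without a listed peak are not known here, and the part of expression in these shares was not tested. In the peak list, 384 peaks on 211 identifiers had no symbol, and 7434 of 7802 listed symbols were among the RefSeq symbols counted. A gene's peak may also be listed under the symbol of a neighbour. A symbol without a listed peak is therefore not known to lack m6A.

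**Figure D1:**
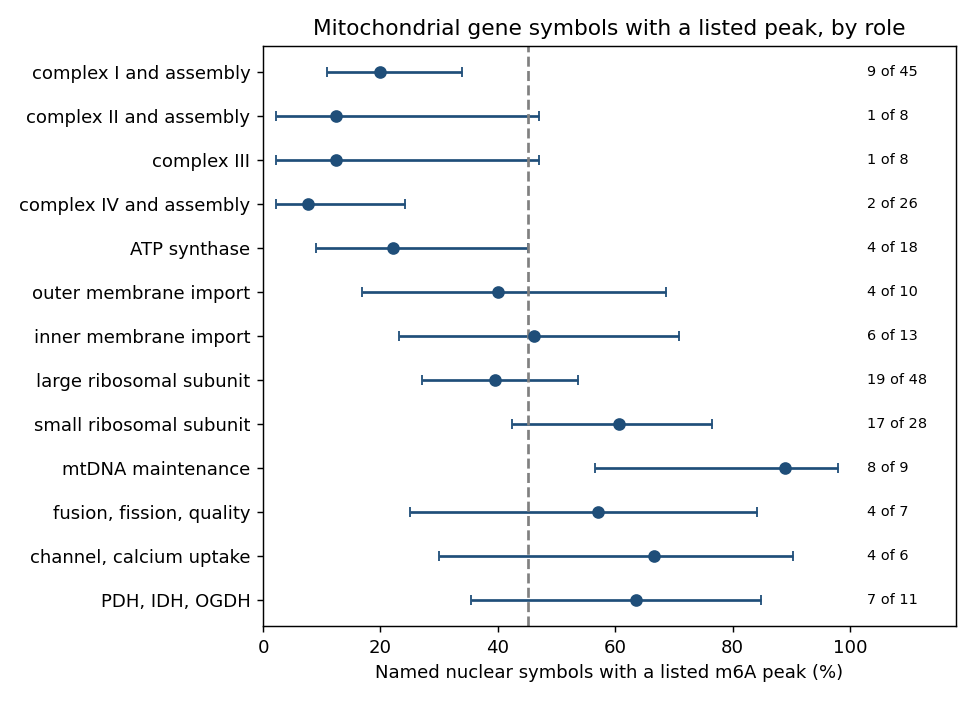
Share of named nuclear gene symbols with at least 1 listed m6A peak (x axis, percent) for the 13 roles (y axis). Points are shares, bars are 95% Wilson intervals for counting error, numbers at the right are symbols with a peak of all symbols the rule matches (*MFNG* among the 7 of fusion and fission), and the dashed line is the share over all named nuclear protein-coding symbols (45.2%). Complex I and complex IV lie wholly below the line and mitochondrial DNA maintenance lies wholly above it. Peaks are counted on every identifier, with or without a mitochondrial GO term.

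Within the respiratory complexes, few symbols of structural subunits had a listed peak. Complex I, the NADH dehydrogenase, had 9 of 45 symbols with a peak (20.0%, 10.9% to 33.8%), of which 6 were among 37 NDUF symbols other than assembly factors and 3 among 8 NDUFAF assembly factors. For complex II, only the assembly factor *SDHAF4* was listed of 8 symbols, and *SDHA* to *SDHD* had no listed peak. For complex III, only *UQCRFS1*, the Rieske iron-sulphur subunit, was listed of 8 symbols. Complex IV, cytochrome c oxidase, had 2 of 26 symbols (7.69%, 2.14% to 24.1%). None of its 17 COX4 to COX8 symbols had a listed peak, where the interval allows up to 18.4%. The 2 listed symbols were the assembly factors *COX10*, which makes the precursor of haem A, and *COX17*, a copper chaperone. The ATP synthase had 4 of 18 symbols. Assembly factors of the complexes had a peak for 6 of 21 symbols (28.6%, 13.8% to 50.0%) and the other 84 symbols for 11 (13.1%, 7.47% to 21.9%), and these intervals overlap.

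Roles outside respiration were covered more often, counting peaks on every identifier under a symbol. A mitochondrial term stood on 0 of 5 identifiers for fusion, fission and quality control and on 1 of 4 for channel and calcium uptake. It stood on 2 of 5 for outer membrane import, 12 of 22 and 12 of 23 for the large and small ribosomal subunits and 5 of 7 for the dehydrogenases. The small ribosomal subunit had a peak for 17 of 28 symbols (60.7%, 42.4% to 76.4%) and the large subunit for 19 of 48 (39.6%, 27.0% to 53.7%). For mitochondrial DNA maintenance and transcription, 8 of 9 symbols were listed (88.9%, 56.5% to 98.0%). These were *POLG* and *POLG2*, the DNA polymerase and its accessory subunit, *TFB1M* and *TFB2M*, and all of *MTERF1* to *MTERF4*, and the missing symbol was *TFAM*, which packages mitochondrial DNA. Pyruvate and citric acid cycle dehydrogenases had 7 of 11 symbols, and channel and calcium uptake genes 4 of 6. Fusion, fission and quality control genes had 4 of 6. This leaves out *MFNG*, a Golgi enzyme without a peak that the rule's MFN prefix also matches and that is counted among the 237. Symbols that start with TOMM had 4 of 10 and those with TIMM 6 of 13, and these take in *TOMM34* and *TIMMDC1*. *OPA1*, *MFF*, *VDAC2*, *VDAC3*, *OGDH* and *PDHB* had no listed peak. Of the testis forms, *COX6B2*, *COX7B2*, *COX8C*, *TOMM20L* and *VDAC3* had no listed peak, while *PDHA2* had 2. The 13 protein-coding genes of the mitochondrial chromosome had no peak either, and no listed peak lay on a mitochondrial sequence.

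The 3' UTR class held a larger share of these peaks than of peaks at large, a gap that lay beyond counting error over all identifiers but within it for those with a mitochondrial GO term. The list puts each peak in 1 class of its transcript, and a wide peak can reach far beyond that class. The 15829 bp peak of *NDUFA6*, in the 3' UTR class, covered 85.9% of its transcript's span. Peaks of the 3' UTR class covered a median of 6.51% of the span in these genes, against 1.92% over all such peaks. The part of width and of transcript span in the class shares was not tested. Of the 122 peaks, 70 were in the exon class (57.4%, 48.5% to 65.8%), beside 70.3% of all listed peaks. The 3' UTR class held 42 (34.4%, 26.6% to 43.2%), beside 20.8% of all peaks, and the 5' UTR class held 10 (8.20%, 4.51% to 14.4%), beside 8.82%. Among the 61 peaks of identifiers with a mitochondrial term the 3' UTR share was 26.2% (16.8% to 38.4%), an interval that holds the share of all peaks, and among the other 61 it was 42.6% (31.0% to 55.1%). The 3' UTR share was 11 of 21 peaks on respiratory genes (52.4%, 32.4% to 71.7%), 20 of 55 on ribosomal genes (36.4%), 3 of 13 on import genes (23.1%) and 8 of 33 on the rest (24.2%). Of the 11 respiratory peaks in the 3' UTR class, 9 lay on identifiers without a mitochondrial term, and with the term the class held 2 of 7 (28.6%, 8.22% to 64.1%). With the term it held 10 of 28 ribosomal peaks (35.7%, 20.7% to 54.2%), 2 of 9 import peaks and 2 of 17 of the rest. On complex I the class held 7 of 11 peaks, of which 6 lay on identifiers without the term.

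**Figure D2:**
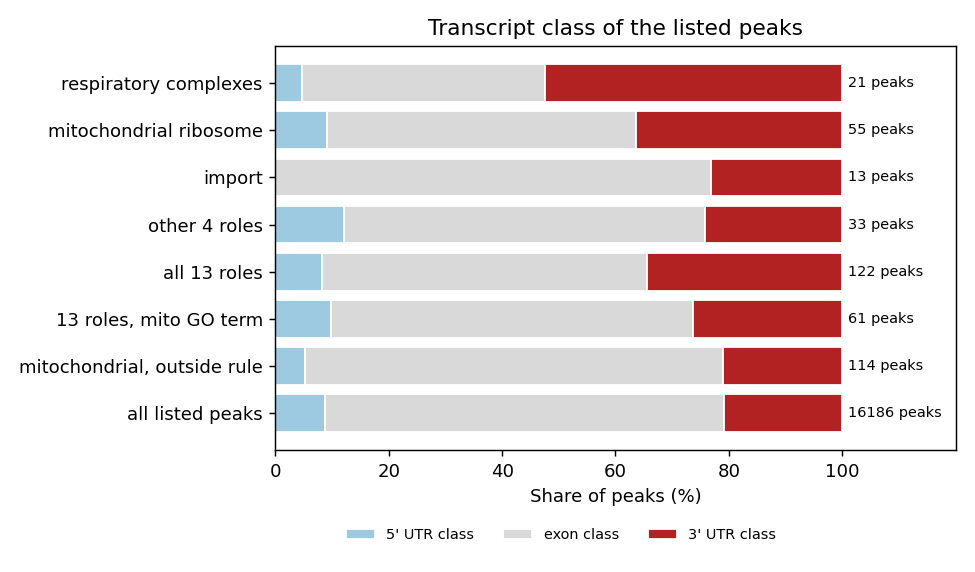
Share of peaks (x axis, percent) in the 5' UTR, exon and 3' UTR classes for the groups of roles, for all 13 roles together, for the identifiers with a mitochondrial GO term, for other mitochondrial genes outside the rule and for all listed peaks. The number of peaks is at the right. The 3' UTR segment is widest for the respiratory complexes (52.4%), where 9 of its 11 peaks lie on identifiers without a mitochondrial GO term, and close to that of all peaks (20.8%) for mitochondrial genes outside the rule (21.1%).

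Most of the genes carried a single peak. One peak was listed for 80 of 100 identifiers (80.0%, 71.1% to 86.7%), beside 54.0% (53.0% to 55.1%) of all identifiers with a peak. There were 18 with 2 peaks, 2 with 3 and none with 4 or more, whereas 7.92% of all identifiers had 4 or more. The share with a single peak was 84.9% (45 of 53) among identifiers with a mitochondrial term, 89.5% (17 of 19) for respiratory genes, 80.0% (36 of 45) for ribosomal genes, 81.8% (9 of 11) for import genes and 72.0% (18 of 25) for the rest. Counted by symbol, 60 of 86 (69.8%, 59.4% to 78.5%) had a single peak, beside 47.7% of all symbols.

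The width of a listed peak is a genomic distance that counts introns. It had a median of 1136.5 bp, with quartiles of 303.75 and 4342.5 bp and a range from 146 to 95643 bp, and the median over all peaks was 1022 bp. The transcripts under these peaks were short, with a median span of 18394 bp against 37138 bp, so a peak covered a median of 11.2% of its transcript's span against 4.11% for all peaks. At least 50% of the span was covered by 19 of 122 peaks (15.6%, 10.2% to 23.0%), beside 7.88% of all peaks. Peaks over 10000 bp made up 18 of 122 (14.8%), close to 14.4% of all. Such peaks cannot be placed on an exon, a stop codon or a base.

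Exon class peaks were numbered by exon. The first exon held 19 of 70 (27.1%, 18.1% to 38.5%), beside 18.4% of all exon class peaks, and the last exon 12 (17.1%, 10.1% to 27.6%), beside 18.2%. In transcripts of 3 or more exons the last exon held 4 of 62 (6.45%, 2.54% to 15.4%), beside 11.6% of all such peaks, and the first exon 14 (22.6%, 14.0% to 34.4%), beside 12.5%. If each exon of these transcripts were drawn equally often, the last would hold 15.3% for the mitochondrial genes and 10.5% for all. Peaks of the UTR classes carry no exon number, so a last-exon peak put in the 3' UTR class is missing from these shares. The equal draw makes no allowance for this, so whether the last exon held fewer peaks than such a draw was not tested. Last-exon peaks were mostly short, since among exon class peaks no wider than 1000 bp the last exon held 11 of 29 (37.9%, 22.7% to 56.0%), beside 35.8% of all such peaks.

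Several peaks lay on adjacent mitochondrial genes. *MRPL46* and *MRPS11*, proteins of the large and the small subunit, are transcribed away from each other on chromosome 17 of LU_Bosgru_v3.0. *MRPL46* (ENSBGRG00000012576) runs on the minus strand from 19854241 to 19864670, and *MRPS11* (ENSBGRG00000012612) on the plus strand from 19864691 to 19877064, with 20 bases between them. Each had 1 exon class peak and 1 3' UTR class peak. On *MRPL46* these were 1165 and 243 bp wide, and on *MRPS11* 9527 and 147 bp. Levels in TES5, TES6 and TES7 were 19.5, 20.7 and 23.7 FPKM for *MRPL46* and 11.5, 9.73 and 12.5 FPKM for *MRPS11*. A further identifier named *MRPS11* (ENSBGRG00000012708, 19909544 to 19937018), the one with ubiquitin ligase terms, had 3 peaks, 1 in each class and 200, 898 and 200 bp wide, at 6.34, 5.48 and 4.65 FPKM. The symbol *MRPS11* thus stood on 5 peaks, more than any other of the 86. *MRPS12* likewise stood on a pair of opposite transcripts with 20 bases between them on chromosome 20, at 11.1, 8.02 and 10.9 FPKM over the animals (ENSBGRG00000025176) and 4.82 ± 0.130 FPKM (ENSBGRG00000025226; SD, n = 3). Both *MRPS12* identifiers carried a mitochondrial term, although their transcripts lie on opposite strands and span 2097 and 11226 bp. The term alone thus does not settle which gene a symbol names. On chromosome 19, *MRPL58*, *ATP5PD* and *MRPS7* followed each other among the listed mitochondrial genes.

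**Figure D3:**
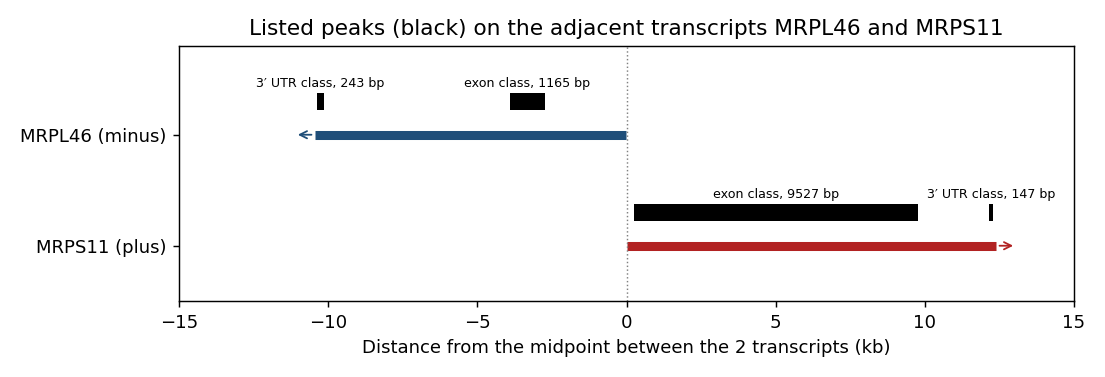
Map of the adjacent transcripts *MRPL46* (minus strand, top) and *MRPS11* (plus strand, bottom) as distance in kilobases from the midpoint between them (x axis). Coloured lines are transcript spans with arrows in the direction of transcription, and black boxes are listed peaks with their class and width. The 9527 bp peak takes up most of the *MRPS11* span, and each gene has a short 3' UTR class peak at its far end.

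In the input libraries the genes were well expressed. The median of mean FPKM was 17.2 over the 100 identifiers, with quartiles of 7.29 and 29.0, beside 7.36 over all genes with a peak and 2.11 over all genes. FPKM was at least 1 in every library for 92 identifiers, beside 86.9% of the genes with a peak. The median coefficient of variation over the 3 animals was 9.98% (94 identifiers with a mean FPKM of at least 1), beside 11.9%, and at a mean FPKM of at least 10 it was 9.24%, beside 9.26%. FPKM values keep no read numbers, so the depth behind a single value is unknown and no detection limit can be given. In bulk tissue, fewer cells of a type and less RNA per cell cannot be told apart.

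**Figure D4:**
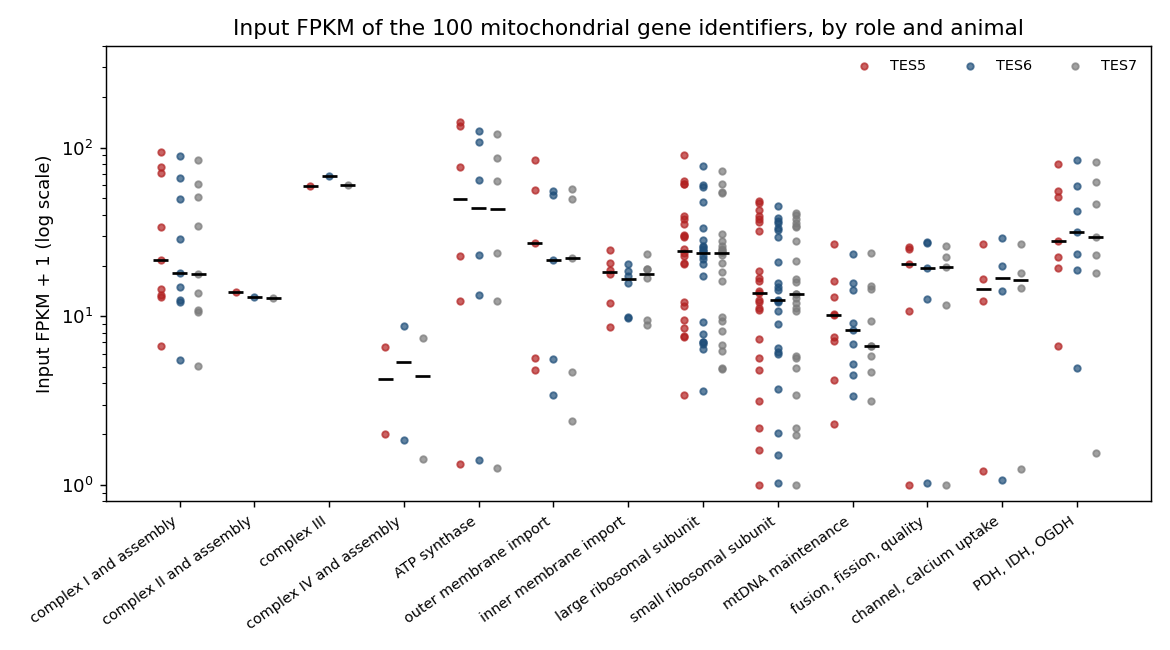
Input FPKM plus 1 on a log axis (y) for the 100 identifiers, by role (x) and animal (colours). Each point is 1 identifier in 1 animal and black lines are medians. Identifiers with ATP synthase symbols reach the highest values and span the widest range, though only that of *ATP5IF1* carries a mitochondrial GO term. The lowest points at 1 are identifiers listed at 0.

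Complex I identifiers ran from 4.77 to 88.4 FPKM, with a median of 18.2. Of the 9, 4 carried a mitochondrial term. *NDUFA10* (ENSBGRG00000022816), an accessory subunit, stood at 93.1, 88.7 and 83.4 FPKM in TES5, TES6 and TES7 (88.4 ± 4.86, SD, n = 3). Its identifier carries RNA-directed DNA polymerase terms. *NDUFB9* (ENSBGRG00000013009) stood at 76.2, 64.6 and 59.4, and carries the actin-binding terms. *NDUFV2*, an iron-sulphur subunit of the NADH-oxidising module, stood at 69.7, 48.7 and 50.3. TES5 was the highest of the 3 animals for each of them, and for 7 of 9 complex I identifiers. *NDUFA6* (ENSBGRG00000010730) had 2 peaks, both in the 3' UTR class and 350 and 15829 bp wide, at 20.6, 17.2 and 16.7 FPKM. *NDUFAF7*, an arginine methyltransferase needed for complex I assembly, also had 2 in the 3' UTR class, the shorter of them inside the longer. The identifiers of *NDUFA6* and *NDUFAF7* carry only the terms nucleus and cytoplasm.

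Complexes II to IV gave 4 identifiers. *SDHAF4* (ENSBGRG00000021672) stood at 12.9, 12.1 and 11.8 FPKM, under an exon class peak of 19260 bp. *UQCRFS1* (ENSBGRG00000020069) stood at 58.1, 66.5 and 59.3 FPKM, under a 3' UTR class peak of 450 bp. *COX10* (ENSBGRG00000015594) stood at 5.54, 7.79 and 6.47 FPKM, with an exon class peak of 248 bp. *COX17* (ENSBGRG00000002380) was close to the floor, at 1.01, 0.859 and 0.428 FPKM, on a transcript from 69772625 to 69879153 of chromosome 1 whose GO terms include RNA-directed DNA polymerase.

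Identifiers with ATP synthase symbols held the 2 highest mean levels of all 100. The symbol *ATP5F1B*, of the catalytic beta subunit, stood on ENSBGRG00000003514 at 134, 124 and 119 FPKM (126 ± 7.29). It also stood on ENSBGRG00000003401 at 75.8, 63.6 and 62.1 FPKM (67.2 ± 7.49), and neither identifier carried a mitochondrial term. The former carried the nascent polypeptide-associated complex term and the latter RNA-directed DNA polymerase terms. These levels may thus not be those of the beta subunit. *ATP5IF1* (ENSBGRG00000013915), the inhibitor that stops the enzyme from running backwards, stood at 140, 107 and 85.5 FPKM (111 ± 27.5). Its values did not come close together in any pair of animals, and its peak of 1846 bp covered nearly the whole short transcript. *ATP5PB*, a stalk subunit, stood on nested transcripts, at 11.7 ± 0.612 FPKM (ENSBGRG00000003935) and 0.335 ± 0.0752 FPKM (ENSBGRG00000004068). The latter carried a 5' UTR class peak of 40050 bp that contains the whole of its own transcript and the 149 bp peak of the former. *ATP5PD*, at 22.3 ± 0.491 FPKM, was the steadiest of the role, on an identifier with Cul3-RING ubiquitin ligase terms. The *ATP5PB* identifier at 11.7 FPKM carried adenosine receptor terms. Of the 6 identifiers of the role, only that of *ATP5IF1* carried a mitochondrial term.

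Outer membrane import genes were higher in TES5 throughout in the values as listed. *TOMM22* (ENSBGRG00000002734), a receptor of the TOM complex, stood at 83.4, 54.3 and 55.8 FPKM (64.5 ± 16.4), with TES5 apart and the others close. *TOMM70*, the receptor for carrier proteins, stood on ENSBGRG00000002944 at 26.2, 20.6 and 21.2 FPKM under a peak of 21029 bp, and on ENSBGRG00000003008 at 3.83, 2.41 and 1.39 FPKM with 2 short peaks. *TOMM34*, a cochaperone, stood at 51.6 ± 3.31 FPKM and *TOMM20* at 4.32 ± 0.531 FPKM. All 5 identifiers were highest in TES5 before any rescaling, *TOMM20* by little (4.66 FPKM beside 4.59 in TES6).

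Inner membrane import genes were moderate and even, from 8.07 to 21.8 FPKM with a median coefficient of variation of 6.96%. *TIMM21* (ENSBGRG00000021856), which links the import channel to respiratory complex assembly, stood highest at 23.8, 19.5 and 22.3 FPKM. *TIMM22* (ENSBGRG00000015916), the channel of the carrier pathway, had 2 peaks of 2158 and 920 bp, in the exon and 3' UTR classes, at 11.0, 8.90 and 8.54 FPKM. *TIMM44*, which tethers the import motor, stood at 18.5 ± 1.09 FPKM. *TIMMDC1*, a complex I assembly factor despite its name, stood lowest at 8.07 ± 0.577 FPKM.

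Large ribosomal subunit identifiers had a median of 22.7 FPKM, and 17 of 22 were highest in TES5. *MRPL16* (ENSBGRG00000013490) stood highest at 89.2, 77.2 and 71.6 FPKM, followed by *MRPL40* at 59.9 ± 2.30 and *MRPL34* at 57.4 ± 3.38 FPKM. *MRPL37* (ENSBGRG00000001480) had 2 overlapping 5' UTR class peaks of 350 and 147 bp at 38.4, 32.5 and 29.9 FPKM. *MRPL42* stood on opposite strands of chromosome 5, at 53.2 ± 6.45 FPKM (ENSBGRG00000001816) and 5.54 ± 1.40 FPKM (ENSBGRG00000001775). *MRPL44* stood on 2 neighbouring transcripts at 26.0 ± 2.43 FPKM (ENSBGRG00000015993) and 22.9 ± 1.02 FPKM (ENSBGRG00000016123), with 3 peaks in all, each in the 3' UTR class. *MRPL4* stood at 6.60 ± 0.554 FPKM (ENSBGRG00000002458) and 7.76 ± 1.10 FPKM (ENSBGRG00000002625), and the latter carried integrin-binding terms.

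Some of the widest spreads between animals were on identifiers with symbols of this subunit. *MRPL48* (ENSBGRG00000004889) stood at 10.5, 5.37 and 5.26 FPKM under a peak of 43896 bp that covers 73.3% of its transcript's span. *MRPL13* (ENSBGRG00000016852) stood at 36.6, 24.8 and 23.0 FPKM. In both, TES5 was apart and the other animals were close. Neither identifier carried a mitochondrial term. That of *MRPL48* had only the terms nucleus and cytoplasm, and that of *MRPL13* had RNA-directed DNA polymerase terms.

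Small ribosomal subunit identifiers had a lower median, 13.3 FPKM, and 10 of 21 with a mean of at least 1 were highest in TES5. *MRPS26* (ENSBGRG00000012344) stood at 47.5, 37.4 and 38.6 FPKM, *MRPS23* at 40.8 ± 2.69 and *MRPS2* at 39.2 ± 5.97 FPKM. *MRPS22* was carried by 3 identifiers on chromosome 1, at 28.8 ± 1.95 FPKM with 2 peaks (ENSBGRG00000001541), 1.06 ± 0.108 FPKM (ENSBGRG00000001595) and 0.768 ± 0.370 FPKM (ENSBGRG00000001619). *MRPS7* stood on overlapping transcripts of opposite strand at 10.6 ± 0.743 FPKM (ENSBGRG00000017681) and 10.3 ± 0.919 FPKM (ENSBGRG00000017780). *MRPS18C* stood at 4.29 ± 0.722 FPKM (ENSBGRG00000021080) and 2.42 ± 0.273 FPKM (ENSBGRG00000021100), both with helicase terms that fit the adjacent *HELQ*. *MRPS28* (ENSBGRG00000018076) was listed at 0, 0.0266 and 0 FPKM on a transcript of 1725 bp, yet held the widest peak of the set, 95643 bp, which contains that transcript. No peak of another listed gene lay inside it.

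Genes for mitochondrial DNA upkeep were low, with a median of 7.38 FPKM and most peaks short (median width 271.5 bp). *POLG* (ENSBGRG00000004700) stood at 12.0, 13.3 and 14.0 FPKM, with 2 exon class peaks of 629 and 201 bp, and *POLG2* at 9.19, 7.27 and 5.67 FPKM. These 2 subunits of the same polymerase were ordered oppositely over the animals. *TFB1M*, the methyltransferase of the small ribosomal RNA, and *TFB2M*, the transcription factor of the mitochondrial RNA polymerase, stood at 8.59 ± 0.632 and 5.91 ± 0.255 FPKM. *MTERF4* (ENSBGRG00000000960), needed for ribosome assembly, stood highest at 25.7, 22.4 and 22.6 FPKM. *MTERF3* stood on a pair of identifiers at 14.5 ± 0.901 FPKM (ENSBGRG00000005841) and 5.20 ± 1.19 FPKM (ENSBGRG00000005916). *MTERF1* was the lowest, at 1.30, 2.36 and 2.17 FPKM, and lower in TES5 than in both other animals.

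Among fusion and fission genes, the symbol *MFN1*, a mitofusin of the outer membrane, had the most peaks. None of the 5 identifiers of this role carried a mitochondrial term. The *MFN1* identifier ENSBGRG00000003142 (chromosome 1, minus strand, 95499008 to 95557831) carried transcription factor terms, and *ZNF639* lies beside that symbol in RefSeq. It had 3 peaks, of 2139 and 827 bp in the exon class and of 22880 bp in the 5' UTR class, at 9.81, 11.6 and 10.7 FPKM. A short transcript inside it on the other strand, ENSBGRG00000003185, was listed at 0, 0.0311 and 0 FPKM but had a 3' UTR class peak of 5730 bp. *MFN2* (ENSBGRG00000008405) stood at 24.7, 26.4 and 24.9 FPKM and *DNM1L*, the fission dynamin, at 24.2, 26.0 and 21.3 FPKM. The *DNM1L* identifier carried RNA-directed DNA polymerase terms. *PINK1*, a kinase of mitochondrial quality control, had 2 3' UTR class peaks at 18.8 ± 0.505 FPKM, on the identifier with kinesin terms.

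*VDAC1* (ENSBGRG00000001048), the outer membrane channel, stood at 25.8, 28.2 and 25.8 FPKM, on an identifier with transcription factor terms. *MICU3* (ENSBGRG00000009621), a regulator of the calcium uniporter, stood at 11.4, 13.1 and 13.8 FPKM with 2 peaks, of 13433 and 150 bp. *MICU2* (ENSBGRG00000014493) was near the floor at 0.219, 0.0724 and 0.245 FPKM. None of the 3 identifiers of this role with a mean of at least 1 was highest in TES5.

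The dehydrogenases were among the more abundant and steadier genes, with a median of 28.7 FPKM and a median coefficient of variation of 6.40%. *IDH1* (ENSBGRG00000006637), the cytosolic form that the rule also matches, stood at 78.5, 83.1 and 81.4 FPKM, above its mitochondrial relative *IDH2* at 54.2, 58.3 and 61.9 FPKM. *IDH3B* (ENSBGRG00000014361), a subunit of the NAD-dependent enzyme, stood at 50.1, 41.3 and 45.0 FPKM with 2 exon class peaks of 200 and 1476 bp. The exon listed for both peaks belongs to another identifier, as it does for the *NDUFA8* peak, and the *IDH3B* identifier has only the terms nucleus and cytoplasm. *IDH3A* stood at 28.7 ± 1.84 FPKM. *PDHX* (ENSBGRG00000020368), the component that binds the lipoamide dehydrogenase, stood at 18.4, 17.8 and 17.0 FPKM under a peak of 61365 bp that covers 80.7% of its transcript's span.

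The X-linked pyruvate dehydrogenase subunit *PDHA1* and its germ-cell form *PDHA2* differed in spread. *PDHA1* (ENSBGRG00000014128) stood at 21.3, 22.5 and 22.1 FPKM, with an exon class peak of 2415 bp and a 3' UTR class peak of 301 bp, on an identifier with RNA-directed DNA polymerase terms and no mitochondrial one. *PDHA2* (ENSBGRG00000000876), a single-exon gene on chromosome 6 from 97564327 to 97565493, had exon class peaks of 244 and 293 bp and stood at 5.70, 3.94 and 0.554 FPKM. TES7 was thus far below both other animals for *PDHA2*, whereas *PDHA1* stayed within a coefficient of variation of 2.57%. On log2(FPKM + 1), TES5 lay 2.11 and TES6 1.67 above TES7 for *PDHA2*. The summed FPKM of the 4 spermatocyte markers with a peak, of 6 listed, was 57.9 in TES5, 36.7 in TES6 and 44.4 in TES7. This sum covered 6 identifiers, since *DMC1* stood on more than 1. *DMC1* (ENSBGRG00000002636) at 21.4, 8.72 and 15.4 FPKM and *SYCP3* at 24.4, 18.0 and 19.8 FPKM were lowest in TES6. *SYCP1* was nearly level in TES6 and TES7 (4.76 and 4.85 FPKM). *MLH3* was lowest in TES7, at 3.46, 2.89 and 2.42 FPKM. The part of spermatocyte content in the *PDHA2* values was not tested.

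Ribosomal, import and respiratory genes were most often highest in TES5. Of the 94 identifiers with a mean FPKM of at least 1, 57 were highest in TES5 (60.6%, 50.5% to 69.9%), beside 36.2% of the 7925 genes with a peak at that level. TES6 was highest for 22 (23.4%, 16.0% to 32.9%), beside 29.6%, and TES7 for 15 (16.0%, 9.92% to 24.7%), beside 34.2%. The TES5 count was 27 of 43 for ribosomal genes, 11 of 17 for respiratory genes, 9 of 11 for import genes and 10 of 23 for the rest (43.5%, 25.6% to 63.2%, which holds 36.2%). It was 0 of 3 for channel and calcium uptake and 1 of 4 for fusion and fission. With libraries rescaled to equal sums, the count over all roles was 44 of 94 (46.8%, 37.0% to 56.8%), beside 25.7%. Among identifiers with a mitochondrial term it was 31 of 53 (58.5%, 45.1% to 70.7%). At a mean FPKM of at least 10 it was 42 of 69 (60.9%), beside 40.2% of the genes with a peak.

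The shift was small. The median difference in log2(FPKM + 1) was 0.12 for TES5 minus TES6 (95% interval of the median 0.07 to 0.19), 0.14 for TES5 minus TES7 (0.06 to 0.17) and 0.04 for TES6 minus TES7 (0.02 to 0.09). Over the 7925 genes with a peak the same medians were -0.01, -0.03 and -0.01. The FPKM sum of the library was 302365 in TES5, 280940 in TES6 and 285927 in TES7. With each library rescaled to the same sum, the medians fell to 0.02 for TES5 minus TES6 and 0.06 for TES5 minus TES7, both with intervals that hold 0, and those over genes with a peak to -0.10 and -0.10. With 1 input library per animal, a difference between animals and one between libraries cannot be told apart, and there was no test.

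**Figure D5:**
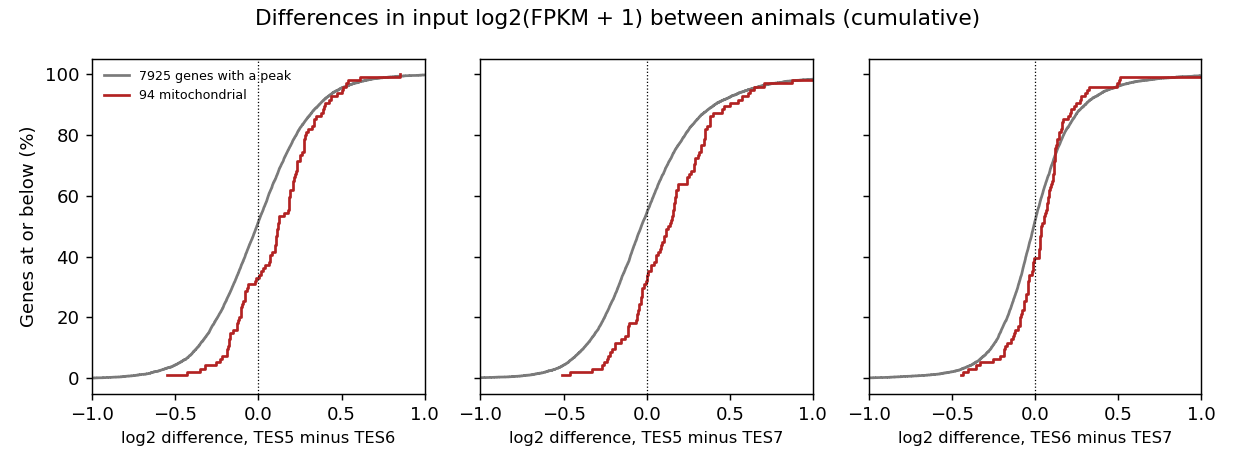
Cumulative share of genes (y axis, percent) at or below a difference in input log2(FPKM + 1) (x axis) for each pair of animals, for 94 mitochondrial identifiers and 7925 genes with a peak, all with a mean FPKM of at least 1. The axis is cut at -1 and 1. The mitochondrial line lies to the right of the other in both panels with TES5, with medians of 0.12 and 0.14, and the lines nearly meet for TES6 minus TES7.

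Few genes differed by 1.5-fold or more on this scale. TES5 was above TES6 by that much for 2 identifiers, *MRPL48* and *TOMM22*, beside 3.03% of the genes with a peak, and below it for none, beside 2.71%. TES5 was above TES7 for 7, namely *ATP5IF1*, *MRPL13*, *MRPL42* (ENSBGRG00000001775), *MRPL48*, *POLG2*, *TOMM70* (ENSBGRG00000003008) and *PDHA2*, beside 5.77%, and below it for none, beside 2.49%. TES6 was above TES7 for 1, *PDHA2*, beside 2.86%, and below it for none, beside 1.39%. With 94 identifiers these counts are close to the shares over all genes with a peak in the upward direction. The identifiers of *MRPL13*, *MRPL42*, *MRPL48* and *TOMM70* named here carried no mitochondrial term.

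Marker genes of other cells moved between the animals as well. The 3 spermatogonial markers with a peak, of 9 listed, summed to 15.8, 18.9 and 24.2 FPKM in TES5, TES6 and TES7, and the 5 peritubular myoid markers, of 5, to 364, 415 and 395 FPKM. The 5 Sertoli markers with a peak, of 11 listed, summed to 164, 153 and 178 FPKM. *TF* set that order, at 87.3, 62.5 and 94.0 FPKM. *WT1* (24.0, 33.3 and 31.5 FPKM), *FSHR* (6.19, 9.05 and 7.96) and *SOX9* (26.7, 27.5 and 28.4) were lowest in TES5. *DHH* (20.1, 20.7 and 16.2 FPKM) was lowest in TES7. *STAR*, the only Leydig marker with a peak of 6 listed, stood at 100, 108 and 112 FPKM. None of the 8 spermatid markers had a listed peak, and an FPKM value is tied to a symbol only for genes with a peak. No marker with a peak was listed at 0. The spermatocyte sum was highest in TES5, as were 57 of the 94 mitochondrial identifiers (44 after rescaling to equal sums), and its part in their difference was not tested.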

How the data were processed

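Testis IP and input libraries of 3 cattle-yaks were analysed. Before deposit, the authors cleaned reads (Trimmomatic, SortMeRNA), aligned them to LU_Bosgru_v3.0 (HISAT2, 2.0.4 in the submitters' processing notes) and used unique alignments. Peaks came from MeTDiff (IP against input) with ChIPseeker annotation, and the deposited list pools the animals. FPKM was calculated by the authors per input library, with a program not given in the sources used here. FPKM values keep no read numbers, and low values showed no steps of whole reads, so no count model was used.

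Members were found by symbol and sorted into 13 roles. The members, the lists and the tests were chosen with earlier results of these data known. Shares were given with 95% Wilson intervals and medians with order-statistic intervals. Means and SDs are over 3 animals, and differences between animals used log2(FPKM + 1) where the mean FPKM reached 1. Such differences understate the change of low genes. Identifiers were named by a rule: those with 3 or more peaks, the 8 highest and 5 lowest by mean FPKM, the 5 largest coefficients of variation at a mean of at least 5, the widest 5 peaks, the identifier with the most peaks and with the highest mean in each role, those listed at 0, symbols carried by 2 or more identifiers, *TFAM* and testis forms. Some values that this rule names are not reported here. Others were named as examples of a role after their values were seen. Symbols were counted against RefSeq (Bosgru_T2T1.0), in which all 86 were found, and coordinates are those of LU_Bosgru_v3.0 in the peak list. Alternatives were other filters, scalings and pseudocounts, merged or narrow peaks, counting by symbol and each animal left out. Procedures were tested on simulated data. The software was Python 3.11.15 with SciPy 1.17.1, pandas 2.3.3, matplotlib 3.10.9 and numpy 2.4.6. No sequence was used here, so motifs were not analysed.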

Additional observations from a re-analysis of the deposited data

How the results depend on the processing

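Of 74 alternative values of the main results, 64 stayed within the interval, spread or 1.5-fold range of the value reported, 10 moved and 0 changed sign. With only identifiers that carry a mitochondrial GO term, chosen after the data were seen, there were 61 peaks, the 3' UTR share was 26.2%, and 21.5% of the rule's symbols had a peak. Counting by symbol gave a single-peak share of 69.8%. The last-exon share was 6.45% in transcripts of at least 3 exons and 37.9% for peaks of at most 1000 bp. The median of mean FPKM was 18.3 with FPKM of at least 1 in every library, and 16.4 to 17.2 with each animal left out, 16.4 being the value without TES5. The number of identifiers with FPKM of at least 1 in every library was 92 to 94 with each animal left out. Rescaling to equal sums gave a median log2 difference of 0.0232 for TES5 minus TES6, and a share highest in TES5 of 46.8%, beside 25.7% of genes with a peak. This scaling of the TES5 share was added after the data were seen. For the 55 named identifiers, 110 of 110 rescaled means lay within 1 SD. The scaling factors ran only from 0.970 to 1.04, so a mean over 3 animals could hardly move and this check says little. Leaving out an animal moved 3 means by over 1.5 times, *PDHA2* to 2.25 without TES5, and *MFN1* (ENSBGRG00000003185) and *MRPS28* to 0 without TES6. No paired analysis was possible because peaks were listed once for all animals and expression was given for inputs alone. The list limits statements on single genes, since some symbols may name a neighbouring gene, wide peaks span introns, no peak has a value per animal, and depth is unknown.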

Other observations

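Mitochondrial genes that the rule does not match were listed separately, by roles in assembly, metabolism, dynamics, gene expression and protein quality control. Of 116 such symbols in RefSeq, 66 had a listed peak (56.9%, 95% Wilson interval 47.8% to 65.5%), beside 45.2% of all named nuclear protein-coding symbols. The share was 20 of 29 for mitochondrial gene expression factors and 18 of 26 for import helpers and proteases, against 8 of 20 for assembly factors and 7 of 16 for citric acid cycle enzymes and carriers. The cycle enzymes *CS*, *FH* and *MDH2* and the electron carrier *CYCS* had no listed peak.

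Their 114 peaks were in the exon class for 73.7%, in the 3' UTR class for 21.1% (14.6% to 29.4%) and in the 5' UTR class for 5.26%. A single peak was listed for 43 of 71 identifiers (60.6%, 48.9% to 71.1%), beside 54.0% of all identifiers with a peak, a share that the interval holds. *BCS1L*, the chaperone that inserts the Rieske subunit into complex III, had 6 peaks at 7.70 ± 0.592 FPKM (SD, n = 3), and *SURF1*, an assembly factor of cytochrome c oxidase, had 5 at 56.6 ± 6.55 FPKM. *TRAK2*, a motor adaptor, had 4 at 4.24 ± 0.658 FPKM. *HSPD1*, the matrix chaperonin, and *MTX2*, an outer membrane import protein, had 3 each, at 107 ± 1.78 and 47.6 ± 4.94 FPKM. Of the 70 identifiers with a mean FPKM of at least 1, 28 were highest in TES5 (40.0%, 29.3% to 51.7%), close to 36.2% of the genes with a peak. None lay 1.5-fold above or below between TES5 and either other animal, beside shares of 2.49% to 5.77%, and 1 lay 1.5-fold lower in TES6 than in TES7, beside 1.39%.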
